A study of Mus musculus with 5 samples.

Results

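The Notch receptors Notch1, Notch2 and Notch3, the ligands Jag1 and Dll1, and the target genes Hes1, Hey1, Hey2, Heyl and Nrarp were followed across clones 1D, 11B, 20B, 30 and 42, which are 5 lines of cardiac progenitor cells from the mouse. The members were all probe sets annotated to these 10 symbols, which gave 18 of the 45101 probe sets and 10 of the 18193 genes named on the array. All clones were described as c-kit+ cells from the left ventricle of adult C67BL/6 mice, as the labels spell the strain, aged 5 to 6 months. The cells had been captured with an antibody to Sca-1, grown as cardiospheres and then as attached cultures, and cloned with rings and by dilution, so each group is 1 cultured clone and not a tissue. No treatment or genetic change was named for any clone. Each clone was hybridized to 1 Affymetrix array, so there was no replicate, no test and no p-value, and a difference between clones cannot be told apart from a difference between cultures or RNA preparations.

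Notch signalling passes between touching cells. A ligand of the Jagged or Delta family on one cell binds a Notch receptor on its neighbour, the receptor is cut by ADAM proteases and by gamma-secretase, and its intracellular domain enters the nucleus, where it joins the DNA-binding protein RBPJ and a Mastermind coactivator. The best known targets are the Hes and Hey genes, which encode basic helix-loop-helix repressors, and Nrarp, an ankyrin-repeat protein that dampens the signal. In the heart the pathway is known for its part in endocardial and vascular development and in the balance between growth and differentiation of progenitor cells. Several Hes and Hey genes also answer to other signals, so their level alone is not a readout of Notch.

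The deposited values were ratios without a stated unit. For 18926 probe sets the median over the arrays was exactly 1, and for the other 26175 it was below 1. The values were therefore read as signals scaled to the median of the probe set, or to a floor where that median was lower. A ratio of 1 is thus the middle clone or the floor. Where the median was 1, the values carry differences between clones but no level. On floor probe sets they carry a signal relative to the floor only. Genes can therefore not be ranked by abundance, and a ratio below 1 on a floor probe set does not show absence. Summed ratios, given below for markers, mix both kinds and are not amounts. A probe set is called measured here where the median was 1 or some clone exceeded 1, and where highest and lowest clone were more than 0.05 log2 units apart. The error of a single probe set was estimated from 6681 pairs of measured probe sets of the same gene. By that measure the deviation of a clone had a spread (SD) of 0.34 log2 units, and the difference between 2 clones a spread of 0.43. The spread covers disagreement between probe sets on the same arrays. An error that all probe sets of an array share cancels in it, and it covers neither culture nor RNA preparation.

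Checks of the cells and RNA gave the following. Of the markers on the label, Kit reached a ratio of 1.183 in clone 20B and 0.991 to 1.002 in the others on its only measured probe set. Pou5f1 stayed below 1 in all clones, at 0.572 to 0.580, and no probe set carried the symbol Ly6a (Sca-1) alone. Of 9 probe sets for 8 endothelial genes, such as Pecam1, Cdh5 and Kdr, 0 were measured, with ratios of 0.449 to 0.833. The same held for 7 of 8 leukocyte probe sets. The summed ratio of 10 fibroblast probe sets was 7.19 in clone 1D, 7.72 in clone 11B, 7.34 in clone 20B, 9.48 in clone 30 and 8.80 in clone 42. Of these, 5 were measured and they went different ways: in clone 42 Pdgfra was highest, at 1.984 and 2.211 on 2 of its probe sets, and Col1a1 lowest, at 0.105 and 0.498. The summed ratio of 9 smooth muscle probe sets ran from 6.25 in clone 1D to 9.64 in clone 30, where Tagln was at 3.557. Of these, 4 were measured and the others did not share the size of that excess. Smtn was highest in clone 11B, at 1.659, against 1.00 in clone 30. Acta2 was at 1.152 in clone 30 and 1.116 in clone 11B, and Myh11 at 0.955 to 1.003. The summed ratio of 5 epicardial probe sets was 5.29 in clone 30, with Msln at 1.757 and Upk3b at 1.361, and 3.75 to 3.79 in the other clones. That Upk3b probe set counted as measured only through clone 30. The probe sets of Wt1 and Aldh1a2 and the other Upk3b one were not measured. In clone 30 they were at 0.960, 0.639 and 0.575. The part of such cells in the results below was not tested. The 5' probe set of Actb divided by the 3' one bears on RNA quality. Both were already scaled ratios, so the quotient compares clones and is not an absolute 5' to 3' ratio. It was lowest in clone 11B, 0.597, against 0.743 in clone 30 and 1.00 to 1.08 in the other clones. For Gapdh this quotient was also lowest in clone 11B, at 0.924, against 1.00 to 1.16.

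Promoters are shown for 2 target genes, Hey2 because its promoter window was the one among those found that held the RBPJ motif, and Nrarp because 1 of its probe sets exceeded the floor in clone 42. The windows run from 250 bases before to 50 after the gene's start, from RefSeq (build GRCm38.p6), and 7 of the 10 members were found in the table. There was no entry for Hes1, Hey1 or Heyl. Capitals mark matches on either strand to the RBPJ motif GTGGGAA, to the N-box CACNAG, a site read by Hes repressors, and to the E-box CACGTG, a site read by Hey and other helix-loop-helix factors.
Hey2, chr10:30842734-30843033, minus strand: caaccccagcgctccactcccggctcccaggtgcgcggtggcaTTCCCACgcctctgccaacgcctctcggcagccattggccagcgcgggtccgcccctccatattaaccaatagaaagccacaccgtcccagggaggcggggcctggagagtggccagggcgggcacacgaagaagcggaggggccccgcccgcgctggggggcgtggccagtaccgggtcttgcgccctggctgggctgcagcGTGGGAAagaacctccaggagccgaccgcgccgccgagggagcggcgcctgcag
Nrarp, chr2:25180508-25180807, plus strand: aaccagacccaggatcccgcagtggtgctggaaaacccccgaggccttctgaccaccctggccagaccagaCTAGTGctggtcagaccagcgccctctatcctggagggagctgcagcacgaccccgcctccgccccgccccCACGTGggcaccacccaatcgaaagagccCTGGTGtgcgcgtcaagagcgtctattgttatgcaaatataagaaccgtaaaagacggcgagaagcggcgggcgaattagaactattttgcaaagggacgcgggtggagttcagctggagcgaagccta
The Hey2 window held 2 matches to the RBPJ motif and the Nrarp window 2 N-boxes and 1 E-box, with no overlap between matches. Among all 32851 windows in the table, 6.38% held the RBPJ motif, 42.5% an N-box and 7.15% the E-box. These are matches of letters, not sites shown to be bound, and the arrays carry no binding data.

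Hes1 was the member that differed most between the clones. Hes1 encodes a repressor that blocks differentiation genes and its own promoter, and it had 1 probe set, 1418102_at. Its ratio was 1.00 in clone 1D, 0.317 in clone 11B, 0.955 in clone 20B, 1.213 in clone 30 and 1.973 in clone 42. Clone 11B was thus low, clone 42 was high, and the other clones lay between them. The range was 2.64 log2 units, a 6.22-fold difference between clones 42 and 11B. Clone 11B lay 1.59 log2 units below the next clone, 20B, and clone 42 lay 0.70 above the next clone, 30, both more than the spread of 0.43. The neighbours in between did not differ beyond it, with gaps of 0.07 log2 units between clones 20B and 1D and 0.28 between clones 1D and 30. No clones were tied on this probe set, unlike on many of the others.

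Set against the median of the other 4 clones, Hes1 was at -1.80 log2 units in clone 11B and at 1.01 in clone 42. Of all 9435 measured genes, 0.806% lay at least 1 log2 unit below the other clones in clone 11B and 0.890% lay that far above them in clone 42. The value in clone 42 was at the limit: it was 0.97 with quantile normalization and 0.98 without clone 11B or without clone 20B. The low value in clone 11B lay between -1.94 and -1.66 in every alternative that kept that clone. Hes1 has 1 probe set, scaled to its own median. Choosing or combining probe sets or raising floor values therefore could not change it, and only rescaling or leaving out a clone could. Without clone 11B the range of Hes1 was 1.05 log2 units. Clone 11B also had the lowest quotient of the scaled 5' and 3' probe sets of Actb (0.597), and the part of RNA quality in its low Hes1 was not tested. Because the gene was measured on a single probe set, no second probe set bears on either value.

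**Figure D1:**
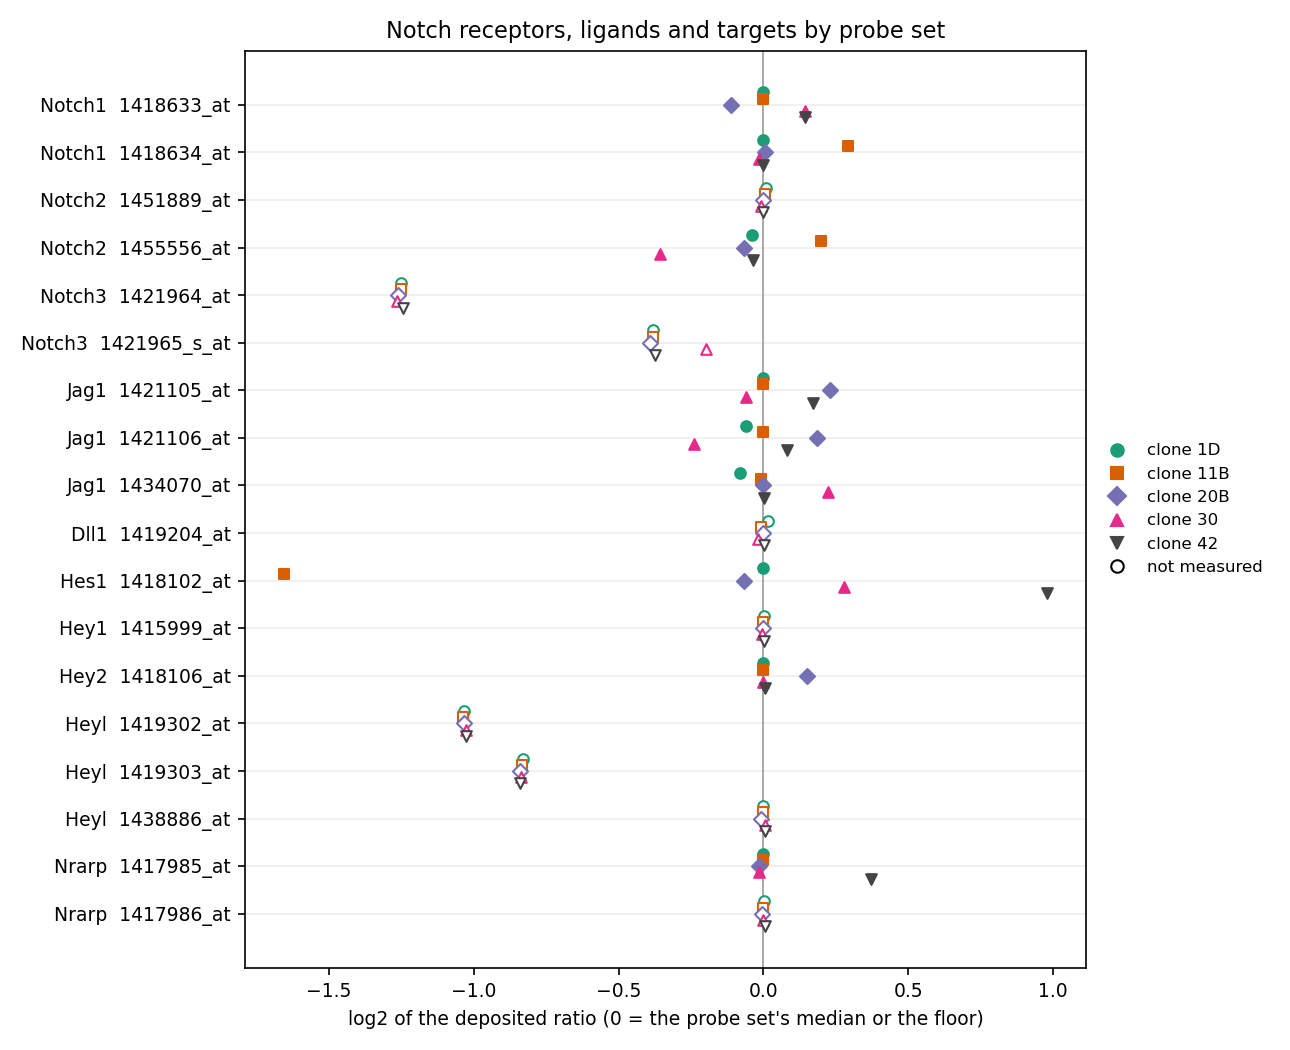
Log2 of the deposited ratio (horizontal axis) for the 18 probe sets of the 10 Notch genes, 1 point per clone, with filled points for measured probe sets and open points for the others. Hes1 spreads from -1.66 in clone 11B to 0.98 in clone 42, while the points of Hey1, Heyl and Dll1 lie on top of each other.

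The other targets showed little or nothing that could be followed. Nrarp, the feedback inhibitor, had 2 probe sets. On probe set 1417985_at its ratio was 1.00 in clone 1D, 0.998 in clone 11B, 0.989 in clone 20B, 0.989 in clone 30 and 1.295 in clone 42. Clone 42 deviated by 0.38 log2 units from the median of the rest, more than the spread of 0.34 of a deviation, but within 0.39 of each of them, less than the spread of 0.43 between 2 clones. This is a floor probe set that counted as measured only through clone 42, so that clone had to be the highest on it. The other 4 clones were tied, meaning that they lay within 0.02 log2 units of each other. On probe set 1417986_at all 5 clones lay between 0.997 and 1.004, so the excess in clone 42 was seen on 1 probe set only.

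Hey1 and Heyl, both direct targets of the receptor's intracellular domain in many tissues, were flat. On the Hey1 probe set 1415999_at the ratios were 0.996 to 1.002. On the Heyl probe sets they were 0.994 to 1.004 (1438886_at), 0.558 to 0.562 (1419303_at) and 0.487 to 0.491 (1419302_at), the last pair below 1 in every clone. Such agreement is closer than the 18 hybridization controls, whose SD was 0.08 log2 units, so it is a shared level and not a measurement of equality. Hey2, known for its part in the ventricular wall and the vessels, had a ratio of 1.111 in clone 20B and 0.998 to 1.004 in the other clones on probe set 1418106_at. Clone 20B thus stood alone, by 0.15 log2 units. The ratios of the other 4 clones recurred unchanged on 14 other probe sets, so their closeness carries no information. The deviation of Hey2 in clone 20B was within the spread.

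Among the receptors, Notch2 had the widest range, 0.56 log2 units. On probe set 1455556_at its ratio was 0.972 in clone 1D, 1.147 in clone 11B, 0.955 in clone 20B, 0.780 in clone 30 and 0.976 in clone 42. Clone 11B was high and clone 30 low, and this pair alone of the 10 pairs of clones differed by more than the spread, 1.47-fold. This floor probe set counted as measured only through clone 11B, the others being below 1, and with values below 1 set to 1 the range was 0.20. On the other Notch2 probe set, 1451889_at, all clones lay between 0.994 and 1.005.

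Notch1, the receptor best known from endothelium and from progenitor cells, gave small differences that its probe sets did not share. On probe set 1418633_at the ratio was 1.00 in clone 1D, 0.998 in clone 11B, 0.925 in clone 20B, 1.104 in clone 30 and 1.105 in clone 42. On probe set 1418634_at it was 1.00 in clone 1D, 1.224 in clone 11B, 1.003 in clone 20B, 0.989 in clone 30 and 1.00 in clone 42. Clones 30 and 42 were thus highest on one and clone 11B on the other. On the first, the ratios of clones 1D and 11B recurred together on 2531 other probe sets. Averaged over both, the range of Notch1 was 0.20 log2 units, under the spread. Notch3, the receptor of mural cells, stayed below 1 on both probe sets: 0.416 to 0.422 on 1421964_at, and 0.763 to 0.771 on 1421965_s_at except in clone 30, at 0.872. It was not counted as measured.

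Of the ligands, Jag1 was measured on 3 probe sets and Dll1 on none. On probe set 1421105_at the Jag1 ratio was 1.00 in clone 1D, 0.998 in clone 11B, 1.173 in clone 20B, 0.959 in clone 30 and 1.125 in clone 42. On probe set 1421106_at it was 0.958 in clone 1D, 1.00 in clone 11B, 1.136 in clone 20B, 0.846 in clone 30 and 1.058 in clone 42. These share an order, with clone 20B highest, clone 42 next and clone 30 lowest. On the third, 1434070_at, clone 30 was the highest at 1.168 and clone 1D the lowest at 0.946, while clones 11B, 20B and 42 had ratios (0.995 to 1.001) that recurred on 503 other probe sets. The probe sets of Jag1 therefore placed clone 30 at opposite ends. The average of the probe sets was lowest in clone 1D (-0.05) and highest in clone 20B (0.14), a range of 0.19 log2 units. Dll1 had ratios of 0.986 to 1.012 on its only probe set, 1419204_at, with the same recurring values in clones 11B, 20B and 42.

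Over the 10 genes, 6 were measured (Notch1, Notch2, Jag1, Hes1, Hey2 and Nrarp) on 9 probe sets, and 4 were not (Notch3, Dll1, Hey1 and Heyl). Of the 6, 1 (Hes1) differed by 1 log2 unit or more, which is 2-fold, between its highest and lowest clone. Among all 9435 measured genes the share was 13.0%, so a single gene of 6 is near what the array gave at large. The median range was 0.29 log2 units over the 6 genes and 0.41 over all measured genes. Counting Hes1 itself, 56 of the measured genes, 0.594%, had a range at least as wide as that of Hes1. Of the 90 comparisons between 2 clones on the 9 measured probe sets, 8 exceeded the spread of 0.43, 7 of them for Hes1 and 1 for Notch2. Over all measured probe sets 21.9% of such comparisons did.

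**Figure D2:**
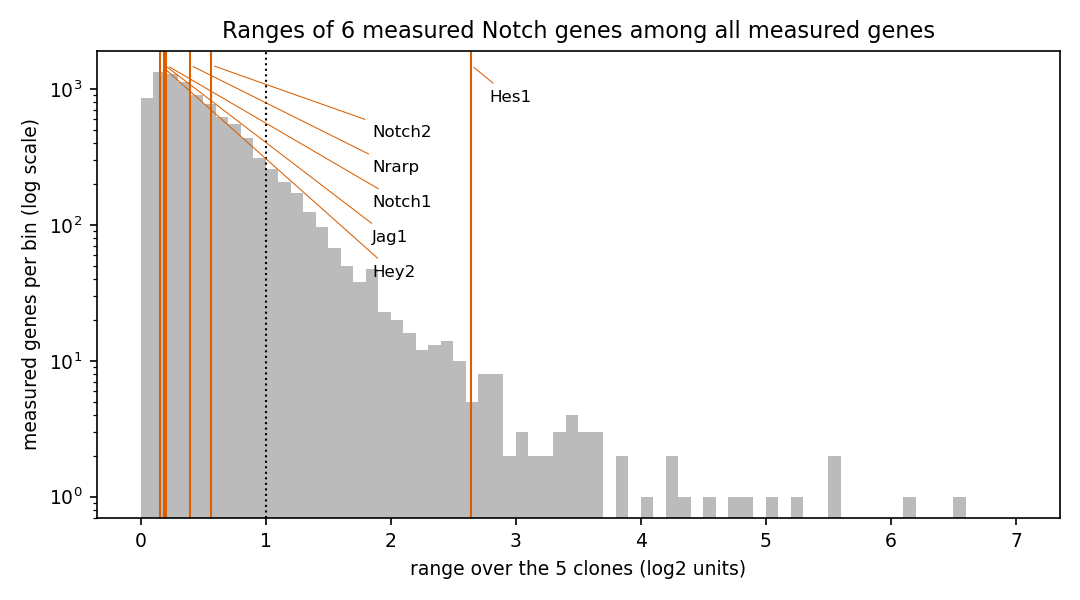
Number of measured genes (vertical axis, log scale) by range over the 5 clones in log2 units (horizontal axis, bins of 0.1), with lines at the 6 measured Notch genes and a dotted line at 1 log2 unit. Hes1 lies at 2.64 and the other 5 genes lie at 0.56 or less.

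The rest of the pathway was described with a list of 59 genes that had a probe set of their own, of which 39 were measured. A range of at least 1 log2 unit was found for 8 of the 39 (20.5%), beside 13.0% of all measured genes, and the median range was 0.52 log2 units beside 0.41. The count was 5 when flat and floor-level probe sets entered the average, where 3.74% of all genes passed, and 4 without clone 11B, where 9.71% did. These were descriptions of a list, and no test of it was made.

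The other receptor, Notch4, and the other ligands showed small differences at most. Notch4, an endothelial receptor, was below 1 on its 3 probe sets in all clones, at 0.393 to 0.930. Of 6 further ligands 3 were measured (Dlk1, Dlk2 and Dner), none with a range above 0.31 log2 units, and Jag2, Dll3 and Dll4 were flat. Of the 5 genes for ligand uptake, 4 were measured, with Neurl1b at the widest range, 0.52 log2 units, and clone 30 highest.

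Of 8 proteases 5 were measured, and 1, Adam17, passed 1 log2 unit. Adam17 is a metalloprotease that sheds many surface proteins and can cut Notch. On probe set 1421857_at its ratio was 1.339 in clone 1D, 0.435 in clone 11B, 1.00 in clone 20B, 0.502 in clone 30 and 1.962 in clone 42. Clone 42 was highest and clone 11B lowest there, as for Hes1, but clone 30 was also low. On probe set 1421859_at the clones lay between 0.935 and 1.056, so the 2 measured probe sets did not share the difference. Adam10, the main protease of activated Notch receptors, ranged over 0.75 log2 units. It was lowest in clone 11B on 3 of its 4 probe sets, at 0.728, 0.278 and 0.869, and at 1.00 on the fourth. Psenen, a subunit of gamma-secretase, ranged over 0.73, from 0.754 in clone 42 to 1.249 in clone 20B.

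Of 5 glycosyltransferases, which add sugars to the receptors and tune their choice of ligand, 4 were measured. Lfng, lunatic fringe, was the one with a range past 1 log2 unit, at 1.07. Its probe sets shared the order of the clones. On probe set 1449943_at the ratio was 1.379 in clone 1D, 0.615 in clone 11B, 1.00 in clone 20B, 0.555 in clone 30 and 1.477 in clone 42. On probe set 1420643_at it was 1.127 in clone 1D, 0.875 in clone 11B, 1.00 in clone 20B, 0.692 in clone 30 and 1.154 in clone 42. Clones 1D and 42 were thus high and clones 30 and 11B low on both. Mfng, manic fringe, had a ratio of 1.40 in clone 42 and 0.988 to 1.005 in the others.

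In the nuclear complex 7 of 8 genes were measured and 2 passed 1 log2 unit. Ep300, a histone acetyltransferase recruited by the complex, had ratios of 0.797 in clone 1D, 1.926 in clone 11B, 1.25 in clone 20B, 0.896 in clone 30 and 1.00 in clone 42 on its only probe set. Its deviation in clone 11B was 1.02 log2 units, and 0.678% of all measured genes lay at least 1 log2 unit above the other clones there. Snw1, which links the intracellular domain to the transcription machinery, ranged over 1.09 log2 units on 1 of 3 probe sets, from 0.720 in clone 11B to 1.538 in clone 1D. Crebbp, the close relative of Ep300, was low in clone 11B, with ratios of 0.598, 0.440 and 0.577 on 3 of its 4 probe sets. On the fourth, clones 11B and 20B were both at 0.904. Its range over the averaged probe sets was 0.95 log2 units, short of 1. Clone 11B was thus highest for Ep300, on 1 probe set, and lowest for Crebbp on 3 of 4. Rbpj itself was below 1 on 2 of 3 probe sets in every clone. On the third, 1454896_at, which counted as measured only through clone 11B, it was 1.035 there, 0.586 in clone 42 and 0.740 to 0.751 in the other clones.

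Of 8 repressors and cofactors 6 were measured. Tle4, a corepressor of the Groucho family that Hes proteins recruit, had the widest range of the list, 2.05 log2 units. On probe set 1450853_at its ratio was 1.00 in clone 1D, 1.37 in clone 11B, 0.547 in clone 20B, 0.219 in clone 30 and 1.563 in clone 42. On probe set 1425650_at clone 30 was again lowest, at 0.644, and clone 42 highest, at 1.547. The deviation of Tle4 in clone 30 was -1.53 log2 units, and 1.69% of all measured genes lay that side of 1 log2 unit there. On the one Tle4 probe set whose mean ratio is highest, it was -0.65. Its relative Tle1 came just short of 1 log2 unit, but its probe sets did not share their extremes. On probe set 1422751_at clone 42 was highest at 2.065, with clone 30 at 0.902 and clone 1D lowest at 0.830. On probe set 1434033_at clone 30 was lowest at 0.579, with clone 42 at 1.004. There the ratios of clones 1D, 11B and 42 recurred unchanged on 1212 other probe sets.

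Among 9 inhibitors and turnover genes 6 were measured, and Numbl and Dtx3 passed 1 log2 unit. Numbl, a relative of the Notch inhibitor Numb, was highest in clone 11B at 1.592 and lowest in clone 20B at 0.730. Dtx3, of the Deltex ubiquitin ligases, was highest in clone 11B at 1.524 and lowest in clone 42 at 0.623. Numb itself ranged over 0.11 log2 units. Of 9 other targets and relatives 4 were measured. Hes6, which counteracts Hes1, had ratios of 1.046 in clone 1D, 1.00 in clone 11B, 0.993 in clone 20B, 0.608 in clone 30 and 1.954 in clone 42 on probe set 1452021_a_at. Clone 42 was thus high, as for Hes1, but clone 30 and not clone 11B was the lowest. The ratios of clones 11B and 20B recurred together on 154 other probe sets, so their closeness carries no information. On the other Hes6 probe set, 1436050_x_at, not counted as measured, all clones lay between 0.734 and 0.757. Id1, a helix-loop-helix inhibitor better known as a target of BMP signals, was highest in clone 42 at 1.36 and lowest in clone 11B at 0.817.

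**Figure D3:**
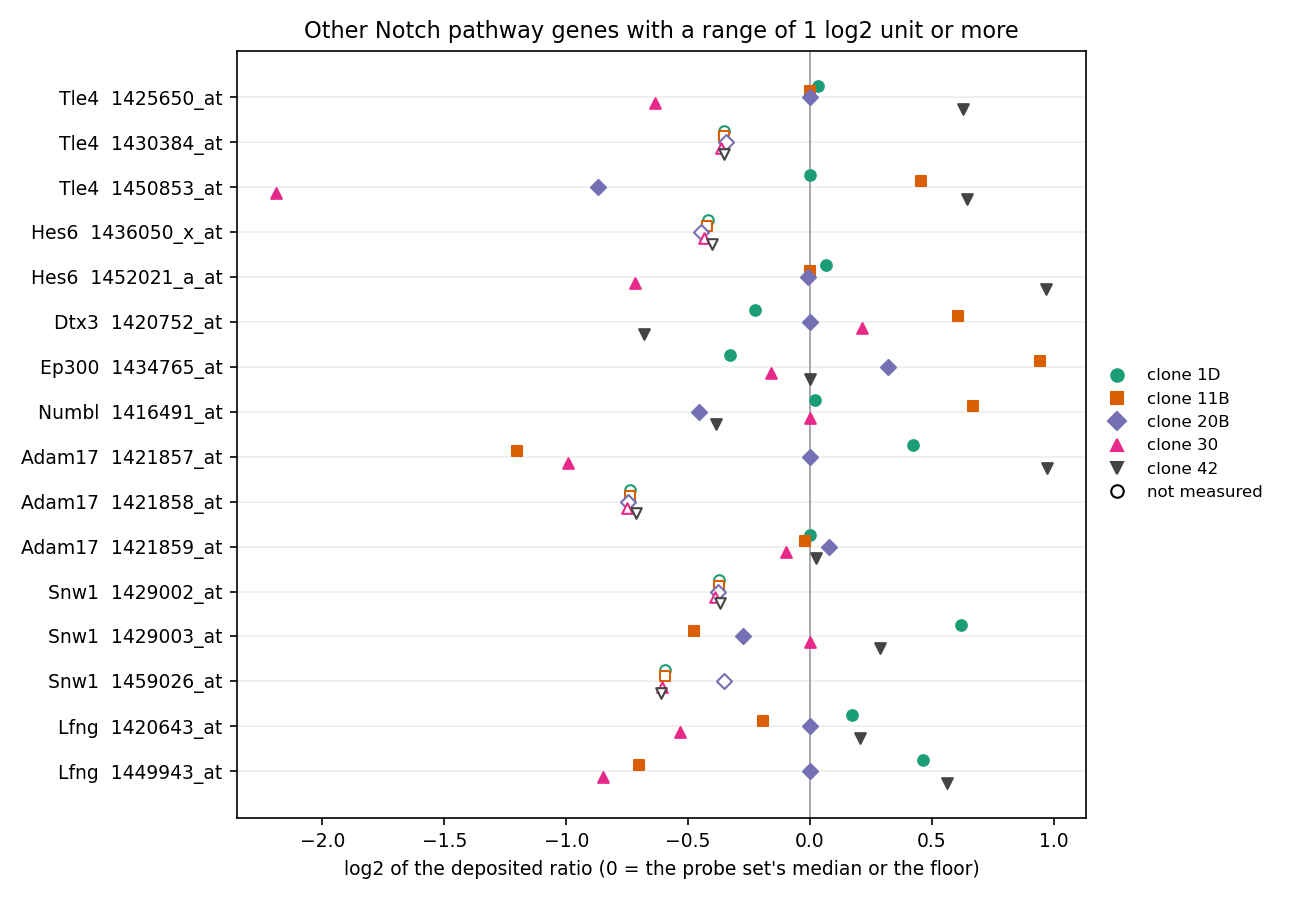
Log2 of the deposited ratio (horizontal axis) for every probe set of the 8 other pathway genes with a range of at least 1 log2 unit, 1 point per clone, with open points for probe sets not counted as measured. Clone 42 is at or near the right on Tle4, Hes6, Lfng and 1 probe set of Adam17, clone 30 at the left on Tle4, Hes6 and Lfng, and clone 11B at the right on Ep300, Numbl and Dtx3.

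The genes with values nearest to those of Hes1 were sought among the 1228 other measured genes with a range of at least 1 log2 unit, by the root mean square difference over the 5 clones after each gene was centred on its median clone. The nearest was Ccdc85b, at 0.12 log2 units, followed by Irx2, a homeobox factor, at 0.21 and Cirbp, a cold-inducible RNA-binding protein, at 0.32. In clone 11B Ccdc85b lay at -1.50, Irx2 at -1.44 and Cirbp at -1.02, beside -1.66 for Hes1. In clone 42 they lay at 0.80, 1.35 and 0.91, beside 0.98. Each was measured on 1 probe set, and a likeness over 5 arrays chosen from so many genes is a description only.

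**Figure D4:**
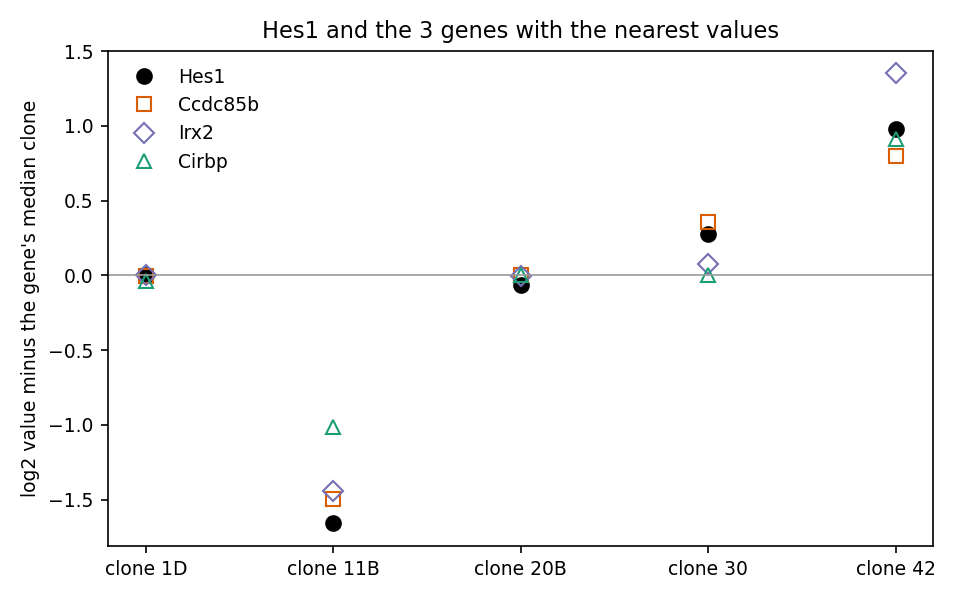
Log2 value minus the gene's median clone (vertical axis) in each of the 5 clones for Hes1 and for Ccdc85b, Irx2 and Cirbp, 1 point per gene and clone. All 4 genes are lowest in clone 11B and highest in clone 42.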

How the data were processed

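Total RNA from 5 clones was measured on Affymetrix arrays, 1 array per clone. Per the submitters' processing notes RMA and GCRMA were used, with no version or role given. The values the authors deposited are a linear ratio per probe set. That unit, and the division by a median or a floor, were read from the values: the median over the arrays was above 1 for 0 probe sets. The genome build is not given in the sources used here. Genes were assigned from the platform annotation, with symbols updated through RefSeq gene IDs: 34958 had 1 symbol, 932 several and 9211 none, and those with 1 symbol were used, apart from control probe sets.

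Ratios were put on the log2 scale and averaged over the measured probe sets of each gene (Python 3.11.15, pandas 2.3.3, numpy 2.4.6). A clone's deviation is its value minus the median of the other 4. Genes of the wider list without a probe set of their own are not reported here. Calls were differences of at least 1 log2 unit. Precision is limited by the number of arrays. The calculations were tested on simulated ratios that had less noise than these data and no floor. That check bears on the arithmetic and not on the calls made here. The genes named were all 10 members, the wider-list genes past 1 log2 unit or up to 4 with the widest range per role, and the 3 nearest genes to each member past 1 log2 unit. Numb, Notch4, the unmeasured genes and the markers were named outside this rule, Numb after its values were seen. The members and lists were chosen with earlier results of these data known. The alternatives were 7 other ways to combine or scale probe sets and leaving out each clone.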

Additional observations from a re-analysis of the deposited data

How the results depend on the processing

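Under all 12 alternatives Hes1 stayed the 1 member with a range of at least 1 log2 unit, with its range between 1.05 and 2.64. The alternatives that choose or combine probe sets or raise floor values could not change Hes1, which has 1 own-median probe set. The number of member values at least 1 log2 unit from the other clones was 2, both of Hes1, and became 1 with quantile normalization, where Hes1 in clone 42 was at 0.97. Leaving out 1 clone at a time gave 0 to 2 such values, with 0 without clone 11B, and 1 without clone 20B or without clone 42. The number of genes of the wider list past 1 log2 unit was 8 and became 5 with every probe set averaged, which adds floor-level probe sets and left 3.74% of all genes past 1 log2 unit in place of 13.0%. It was 10 on the probe set with the largest mean (16.6% of all genes) and 9 with quantile normalization (12.8%). Leaving out 1 clone at a time gave 4 to 8, with 4 without clone 11B (9.71% of all genes) and 5 without clone 42 (9.75%). The range of Notch2 was 0.20 with ratios under the floor raised to it, and that of Nrarp 0.02 without clone 42. Notch2 and Nrarp gave no value with own-median probe sets only. No paired analysis was possible because each clone has 1 array. Detection calls and levels were not used here, so signal over background could not be weighed.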

Other observations

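The series is named for SDF-1, the chemokine encoded by Cxcl12, and the values of Hes1 and Cxcl12 can be set side by side. On probe set 1448823_at the Cxcl12 ratio was 0.997 in clone 1D, 1.889 in clone 11B, 1.00 in clone 20B, 0.307 in clone 30 and 1.001 in clone 42. On this probe set clone 11B was thus highest for Cxcl12, and it was lowest for Hes1, at 0.317. Clone 42, highest for Hes1 at 1.973, was tied for Cxcl12 with clones 1D and 20B. The ratios of these clones recurred unchanged on 376 other probe sets, so their closeness carries no information. The lowest Cxcl12 on this probe set was in clone 30. The low value of clone 30 rests on 1 of 3 probe sets. On the floor probe set 1417574_at clone 11B was again highest, at 2.78. Clone 30, at 0.974, was tied there with clones 1D and 20B. All of these were below 1, so the tie cannot show whether clone 30 was lower. On 1439084_at, a floor probe set not counted as measured, clone 30 was highest at 0.965, with clone 11B at 0.920 and clone 1D lowest at 0.794. With 5 clones of 1 array each no relation between the 2 genes was computed.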
